A study of Equus caballus with 68 samples.

Results

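Amphiregulin (AREG) and 7 further genes of the epidermal growth factor (EGF) family were followed in equine bone marrow mononuclear cells (BMNC) during culture in normal and inflamed synovial fluid. The set held the ligands AREG, epiregulin (EREG), heparin-binding EGF-like growth factor (HBEGF) and transforming growth factor alpha (TGFA), the receptors EGFR, ERBB2 and ERBB3, and ADAM17, the membrane protease that releases these ligands. All 8 genes were found by symbol in the expression table, which lists 30371 genes and holds a value over 0 for 24065 of them. AREG was selected from these data because it was higher in inflamed fluid at 48 h, so the comparison of the 2 fluids at 48 h is given for the members as a description with no test. The other members were chosen by family, although earlier results of these data were known, and further family genes such as BTC were left out of the set.

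EGF-family ligands are made as membrane-bound precursors, and cleavage of their ectodomain frees the soluble factor. The free ligand binds a receptor of the EGFR and ERBB group, the receptors pair, and the RAS-ERK kinase cascade is among the pathways that follow. AREG and EREG are low-affinity ligands that myeloid cells make during inflammation and repair, HBEGF binds EGFR and ERBB4 and is made by macrophages, and ERBB2 has no ligand of its own while ERBB3 binds neuregulins. ERK signalling induces its own inhibitors, among them the Sprouty proteins and dual-specificity phosphatases.

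The libraries came from 8 adult Thoroughbred horses, 6 geldings and 2 mares, aged 3 to 9 years. BMNC, isolated from sternal marrow by density gradient, were either sequenced fresh (0 h, n = 8) or cultured in undiluted autologous synovial fluid, which was normal (SF) or inflamed (ISF, taken without its cells from the horse's own joints after intra-articular lipopolysaccharide). Each fluid was sampled at 48 h (n = 7), 96 h (n = 8), 6 d (n = 8) and 10 d (n = 7), from 1 well per horse and condition, giving 68 libraries in 9 groups. Fluid was topped up during culture, and the horse is the replicate throughout. The values are GeTMM, that is, reads per gene scaled by gene length and by TMM factors. They can be compared between libraries, and between genes as far as the lengths of the gene models hold.

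Depth ranged from 15653436 to 35971635 reads on genes per library, as recovered from the steps of the values. Macrophage markers rose in culture, with 6 of 6 called higher from 0 to 48 h in each fluid, and their summed level went from 170 to 287 GeTMM at 0 h to between 5044 and 13120 GeTMM at 48 h. Markers of neutrophil precursors summed to between 11356 and 20997 GeTMM at 0 h, so the fresh cells held other marrow lineages. In RNA from whole cultures, fewer cells of a type and less RNA per cell cannot be told apart. The SF library of Moon at 6 d stood apart, with a total of 2321940 GeTMM against 817795 to 1458342 in the others. By genes that differ between horses, 65 of 68 libraries were closest to their own horse. The ISF libraries labelled Dealings and Dreamer at 96 h were each closest to the other of these 2 horses (r = 0.931 and 0.916, against -0.310 and -0.240 for the labelled horse), and the ISF library of Catnip at 10 d was about as close to Flash (0.579) as to Catnip (0.550). Comparisons of groups do not use the horse, so an exchange of the first 2 would leave them as they are, and results for single horses at 96 h are given with both readings.

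ADAM17 was the most abundant member and the receptors were the least. Over all 68 libraries the median was 64.5 GeTMM for ADAM17 (8.73 to 119.9), 4.47 for TGFA (0 to 40.4), 2.30 for HBEGF (0.351 to 13.5), 0.579 for EREG (0 to 28.5) and 0.209 for AREG (0 to 7.92). The medians of EGFR, ERBB2 and ERBB3 were 0.0243, 0.0140 and 0.0150 GeTMM. AREG rested on 1800 reads in all libraries together, with 0 reads in 20 of them, and EREG on 1603 reads, with 0 in 23. A library with 0 reads still allows up to 3 reads, which for AREG was 0.0599 to 0.174 GeTMM depending on the library, and such limits cover counting error only. The gene model of AREG (ENSECAG00000022525) holds 1689 bases and that of EREG (ENSECAG00000007588) 513 bases, so their per-length levels rest on models of unequal extent. In the order of genes of the RefSeq annotation of another assembly, TB-T2T, BTC, AREG, EREG and EPGN are neighbours, and a lncRNA overlaps AREG. The libraries were stranded, but the strand setting of the counting was not given in the sources used here, so reads from that lncRNA were not separated from AREG here.

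Of the 8 members, 5 passed the filter of at least 0.5 GeTMM in at least 7 libraries and were tested with limma among 14570 genes (two-sided, called at a Benjamini-Hochberg FDR under 0.05). AREG reached 0.5 GeTMM in 18 of 30 ISF libraries, 4 of 30 SF libraries and 0 of 8 fresh ones, so it passed largely through the group in which it was high. The figures for EREG were 24, 11 and 0 libraries. HBEGF, TGFA and ADAM17 reached the floor in nearly all libraries of each kind. EGFR, ERBB2 and ERBB3 reached it in 2, 2 and 0 libraries and were not tested.

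**Figure D1:**
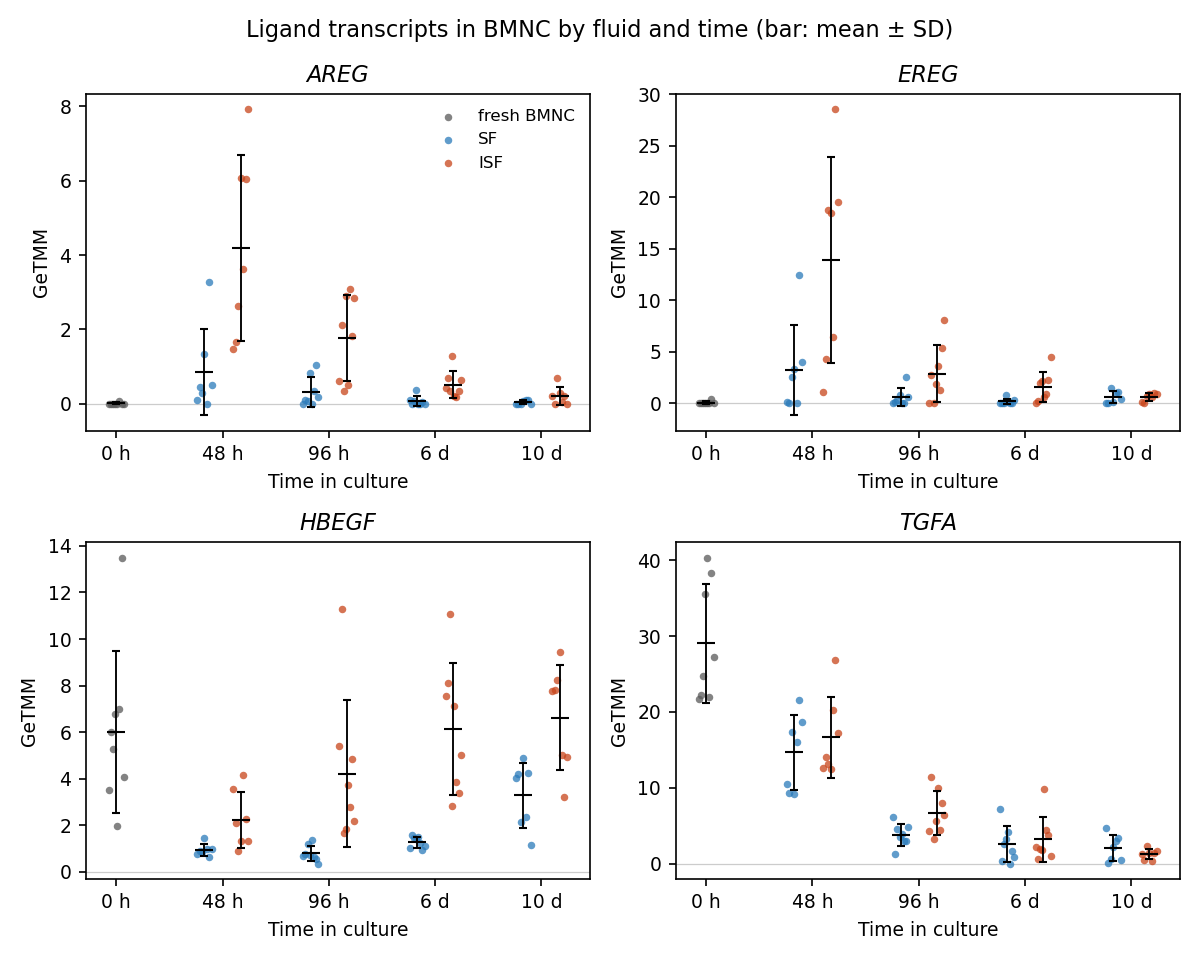
GeTMM of the 4 ligands (y axes, linear, with a different range in each panel) against time in culture, with 1 point per library for fresh BMNC (grey), SF (blue) and ISF (red) and black bars for the mean ± SD. AREG and EREG were highest in ISF at 48 h and fell after it, HBEGF was at 0.627 to 1.47 in SF at 48 h and higher in ISF than in SF in every horse at 96 h and 6 d, and TGFA was highest in fresh cells.

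AREG was almost absent from fresh BMNC and peaked in ISF at 48 h. At 0 h 7 of 8 libraries had no AREG read and Moon had 0.0781 GeTMM. In ISF at 48 h the 7 libraries ran from 1.46 (Catnip) through a median of 3.62 to 7.92 GeTMM (RimRun), and in SF from 0 (Lurie) through 0.458 to 3.29 (Ollie). The groups overlapped only through Ollie in SF, since 4 of the 7 ISF libraries lay above every SF library. In the contrast that chose the gene, AREG was higher in ISF in 7 of 7 horses, by a mean of 1.52 on the log2(GeTMM + 1) scale, the scale of all log2 values here. Of all genes tested, 1.68% were called in this contrast. The smallest difference in AREG was in Ollie (0.72), whose SF library was already high, and the largest in RimRun (2.57).

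At 96 h, in libraries that the choice of AREG did not use although the horses were the same, AREG remained higher in ISF. The ISF libraries ran from 0.337 (labelled Dreamer) through a median of 1.97 to 3.09 GeTMM (Moon), and the SF libraries from 0 through 0.134 to 1.04 (Ollie). The difference was 0.99 ± 0.22 (SE, FDR = 0.0014, limma), and AREG was higher in ISF in 8 of 8 horses whether or not the 2 libraries of Dealings and Dreamer were exchanged. At 96 h 2 of the 5 tested members were called, AREG and HBEGF, both higher in ISF, against 10.5% of all genes tested.

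AREG was lower in both fluids at the later times. At 6 d it ran from 0.195 to 1.29 GeTMM in ISF and from 0 to 0.381 in SF, where 4 of 8 libraries had no read. ISF exceeded SF in 8 of 8 horses, but at these levels the difference of 0.47 ± 0.22 missed the threshold (FDR = 0.10). With a term for horse the FDR was 0.048 for the same difference. Over 16 alternative ways of fitting, the FDR of AREG at 6 d ran from 0.0037 to 0.20, and 4 of them called it. The 4 were the term for horse, a pseudocount of 0.1, voom on reads, and a model restricted to ISF and SF at 6 d. The summed reads at 6 d were 128 in ISF and 21 in SF, a ratio per depth of 5.93 (95% exact interval 3.72 to 9.92, counting error only). By 10 d AREG was at 0 to 0.697 GeTMM in ISF and 0 to 0.111 in SF, and the difference of 0.19 ± 0.24 was not called (FDR = 0.63). ISF was higher in 4 horses, lower in 1 and equal at 0 reads in 2. The summed reads at 10 d were 40 in ISF and 9 in SF, a ratio per depth of 5.28 (95% exact interval 2.52 to 12.4, counting error only). The ratio of the mean GeTMM in ISF to that in SF was 4.94 at 48 h, 5.52 at 96 h, 6.96 at 6 d and 5.03 at 10 d. The difference in AREG thus became smaller on the log2(GeTMM + 1) scale, on which levels under the pseudocount of 1 lie close together. The ratios at 48 h and 10 d each leaned on a single library. Dreamer held 22 of the 40 ISF reads at 10 d, and Ollie held 83 of the 184 SF reads at 48 h. Whether the ratio changed between these times is therefore not shown.

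Over time, AREG in ISF at 96 h was above fresh BMNC by 1.33 ± 0.22 (FDR = 4.8e-07), and in SF by 0.34 ± 0.22, which was not called (FDR = 0.19). Because fresh BMNC held only 2 AREG reads, these fitted differences depend on the pseudocount, and the reads per depth were 201 times (95% exact interval 55.4 to 1670) those at 0 h in ISF and 33.4 times (8.94 to 281) in SF. In SF the rise was called in 3 of 17 alternative fits, with an FDR down to 0.014. Those fits were a pseudocount of 0.1, a model restricted to the groups compared, and voom on reads. From 96 h to 10 d AREG fell by 1.09 on the log2 scale in ISF (SE 0.23, FDR = 1.3e-04), and the change of -0.29 in SF was not called (FDR = 0.45). In the order of group means of log2(GeTMM + 1), ISF at 48 h stood above ISF at 96 h by more than the SD of either group, whereas each further step down the order was within the spread of the groups.

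EREG, which binds EGFR and ERBB4, followed AREG at a higher level per length and with a wider spread between horses. Fresh BMNC had 3 EREG reads, all in Ollie. At 48 h EREG ran from 1.06 (Catnip) through 18.5 to 28.5 GeTMM (Ollie) in ISF, and from 0 in 2 libraries through 2.57 to 12.4 (Ollie) in SF. EREG was higher in ISF in 7 of 7 horses, with a mean difference of 2.00, and Ollie was the highest horse in both fluids. These 48 h values stand as a description because AREG was chosen on the same contrast.

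At 96 h EREG ran from 0 to 8.08 GeTMM in ISF and from 0 to 2.57 in SF, and was higher in ISF in 6 of 8 horses, as labelled and with the libraries of Dealings and Dreamer exchanged. The difference of 1.10 ± 0.42 was not called without a term for horse (FDR = 0.086) and was called with it (FDR = 0.012, or 0.0067 with the libraries of Dealings and Dreamer exchanged). At 6 d the range was 0 to 4.48 in ISF and 0 to 0.806 in SF, and ISF was higher in 7 of 8 horses with the eighth at 0 in both fluids. That difference was 0.98 ± 0.42 (FDR = 0.070, or 0.012 with the term for horse). At 10 d the fluids no longer differed in a steady direction, with 3 horses higher in ISF, 3 lower and 1 equal, and a difference of 0.08 ± 0.45 (FDR = 0.93, 95% interval -0.83 to 0.99).

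From 0 to 48 h EREG rose in both fluids, by 3.39 ± 0.44 in ISF (FDR = 1.4e-09) and 1.39 ± 0.44 in SF (FDR = 0.0072). AREG was left out of the tests from 0 to 48 h. All 4 remaining members with enough expression were called in each fluid, EREG and ADAM17 higher and HBEGF and TGFA lower, against 52.7% of all genes tested in ISF and 45.4% in SF. At 96 h EREG was still above fresh BMNC in ISF, by 1.51 ± 0.42 (FDR = 0.0014), and not by a called amount in SF (0.42 ± 0.42, FDR = 0.41). The decline in ISF from 96 h to 10 d, -0.94 ± 0.44, had an FDR of 0.094, and 0.032 with the term for horse.

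HBEGF took a different course from AREG and EREG, since it was present in fresh BMNC, was lower at 48 h and rose again, earlier in ISF than in SF. At 0 h it ran from 1.96 (Lurie) through 5.62 to 13.5 GeTMM (Ollie). At 48 h it was at 0.627 to 1.47 in SF, with every SF library below every fresh one, and at 0.889 to 4.14 in ISF. HBEGF fell from 0 to 48 h by 1.72 on the log2 scale in SF (SE 0.26, FDR = 8.4e-08) and by 1.07 in ISF (SE 0.26, FDR = 3.7e-04). At 96 h SF was still below fresh BMNC, with a fall of 1.85 (SE 0.25, FDR = 2.5e-09), while ISF differed from it by -0.47 ± 0.25 (FDR = 0.092). Leaving out Catnip, Dealings or Lurie brought that last comparison to a call (FDR = 0.0499, 0.026 and 0.029).

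Among the 5 tested members, HBEGF had the lowest FDR between the fluids at 96 h, 6 d and 10 d. At 96 h ISF ran from 1.66 (labelled Dreamer) through 3.27 to 11.3 GeTMM (labelled Dealings) and SF from 0.351 (RimRun) through 0.710 to 1.36 (Lurie), with no overlap. At 6 d ISF ran from 2.83 (Flash) through 6.06 to 11.1 (Dreamer) and SF from 0.939 (Ollie) through 1.33 to 1.57 (Dealings), again with no overlap. HBEGF was higher in ISF in 8 of 8 horses at both times, by 1.38 ± 0.25 at 96 h (FDR = 7.1e-05) and 1.55 ± 0.25 at 6 d (FDR = 1.7e-06). It was the only one of the 5 tested members called at 6 d, when 30.2% of all genes were called, although AREG and EREG were called there too with the term for horse.

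At 10 d HBEGF had risen in SF, to 1.16 to 4.88 GeTMM, and stood at 3.19 to 9.43 in ISF. ISF was higher in 6 of 7 horses, with Ollie reversed (3.19 in ISF and 4.23 in SF). The difference was 0.85 ± 0.27 (FDR = 0.016), the only call among the 5 tested members against 20.8% of all genes. Leaving out Dreamer or RimRun ended this call (FDR = 0.072 and 0.067). The rise from 96 h to 10 d was 1.20 ± 0.26 in SF (FDR = 4.8e-04) and 0.67 ± 0.26 in ISF (FDR = 0.038). The ISF rise was not called without Catnip, Dreamer (as labelled), Flash, Lurie, Moon or RimRun in turn, with FDR values from 0.056 to 0.17.

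Some marker lists of other cells were lower in ISF at the later times, beside the HBEGF result. At 96 h 0 of 5 T cell markers, 0 of 6 neutrophil precursor markers and 0 of 4 megakaryocyte markers were called, and of 6 macrophage markers 1 was higher and 1 lower. At 6 d 5 of 5 T cell, 5 of 6 neutrophil precursor and 3 of 4 megakaryocyte markers were lower in ISF, with 1 macrophage marker higher and 1 lower. At 10 d 5 of 5 T cell, 3 of 6 neutrophil precursor and 0 of 4 megakaryocyte markers were lower. None of 4 erythroid and 3 mast cell or basophil markers was called at 6 d or 10 d, and of 4 cell cycle genes 2 were higher in ISF at 96 h, 3 at 6 d and 0 at 10 d. Of all genes tested, 10.5%, 30.2% and 20.8% were called at 96 h, 6 d and 10 d. The summed T cell markers were at 8.57 to 47.3 GeTMM in ISF and 28.6 to 228 in SF at 6 d, and the neutrophil precursor markers at 2.76 to 2393 and 89.4 to 4799. Their part in the HBEGF difference at 6 d and 10 d was not tested.

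TGFA was the most abundant ligand in fresh BMNC and fell through culture. It ran from 21.7 (Catnip) through 26.0 to 40.4 GeTMM (Lurie) at 0 h. At 48 h it was at 9.20 to 21.6 in SF and 12.5 to 26.9 in ISF, and at 96 h at 1.25 to 6.12 and 3.18 to 11.4, with every 96 h library below every fresh one. The fall from 0 to 96 h was 2.68 on the log2 scale in SF (SE 0.32, FDR = 1.3e-10) and 2.02 in ISF (SE 0.32, FDR = 2.0e-07). The fall over the first 48 h was smaller, 0.96 in SF (SE 0.34, FDR = 0.015) and 0.77 in ISF (SE 0.34, FDR = 0.048). The first was not called without Flash (FDR = 0.073), and the second was not called without Catnip, Dreamer, Flash, Lurie, Ollie or RimRun in turn (FDR 0.060 to 0.14).

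The fluids did not differ in TGFA by a called amount at any time tested. The difference was 0.66 ± 0.32 at 96 h (FDR = 0.20, higher in ISF in 6 of 8 horses as labelled and in 7 of 8 with the libraries of Dealings and Dreamer exchanged), 0.29 ± 0.32 at 6 d (FDR = 0.54) and -0.26 ± 0.35 at 10 d (FDR = 0.67). The 95% intervals were 0.01 to 1.31, -0.36 to 0.94 and -0.95 to 0.44. From 96 h to 10 d TGFA fell by a further 1.73 in ISF (SE 0.34, FDR = 3.9e-05) and changed by -0.81 ± 0.34 in SF (FDR = 0.089, or 0.042 with the term for horse). At 96 h the summed neutrophil precursor markers were also below their level at 0 h. They were at 474 to 4538 GeTMM in SF and 210 to 4973 in ISF. Over the 60 cultured libraries, which share horses and times, TGFA and the mean log2(GeTMM + 1) of that list had a Pearson r of 0.72. Over the same libraries TGFA and the macrophage list had an r of -0.74. Whether either bears on the TGFA level was not tested.

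From 0 to 96 h 4 of 5 tested members were called in ISF, AREG, EREG and ADAM17 higher and TGFA lower, against 65.9% of all genes. In SF 3 of 5 were called, ADAM17 higher and HBEGF and TGFA lower, against 61.1%. From 96 h to 10 d the calls were 3 of 5 in ISF (HBEGF higher, AREG and TGFA lower) against 32.4%, and 1 of 5 in SF (HBEGF) against 16.0%. The 2 fluids share the fresh libraries as their reference at 0 h. AREG and EREG passed the filter through cultured libraries alone.

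The makeup of the ligand transcripts shifted from TGFA to HBEGF. Within the summed GeTMM of the 4 ligands, TGFA made up 82.8% ± 7.0 (SD, n = 8) at 0 h and HBEGF 17.02% ± 6.8. In ISF at 48 h AREG held 10.8% ± 4.1 and EREG 33.2% ± 18.2 (n = 7), against 3.7% ± 3.7 and 12.0% ± 12.5 in SF. The reads of AREG and EREG in ISF at 48 h were 924 and 930, over gene models of 1689 and 513 bases. Their shares and the summed level therefore depend on these models. At 10 d HBEGF held 75.6% ± 13.1 in ISF and 58.1% ± 20.2 in SF. The summed level was 36.9 ± 15.1 GeTMM in ISF at 48 h, close to the 35.1 ± 9.4 of fresh BMNC, and 8.7 ± 2.5 in ISF at 10 d.

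**Figure D2:**
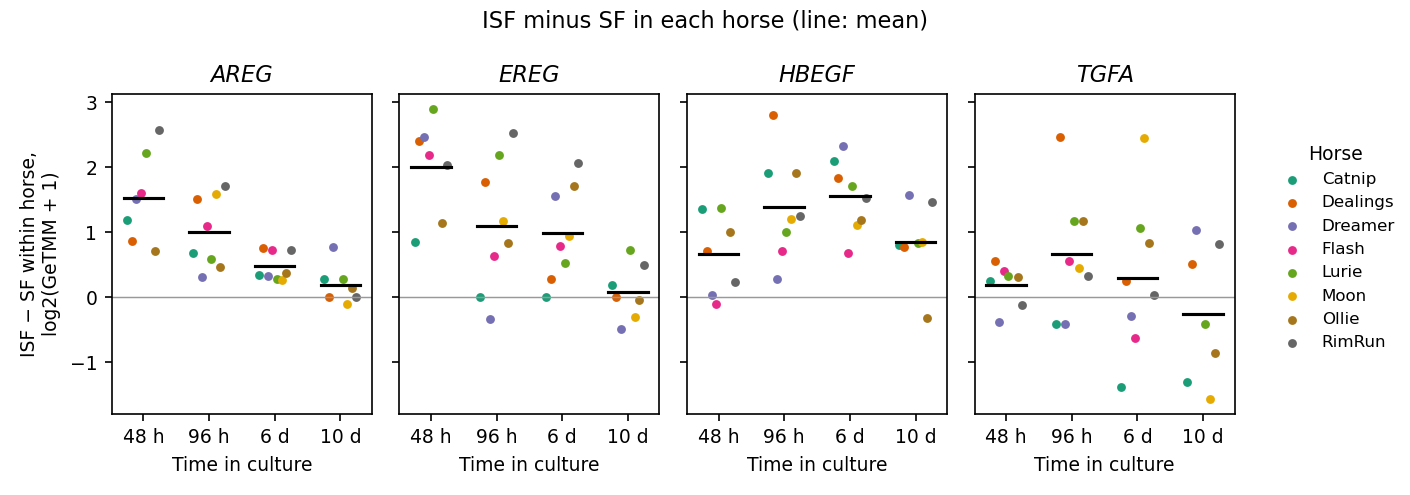
Difference between the ISF and the SF library of each horse on the log2(GeTMM + 1) scale (y axis) at 48 h, 96 h, 6 d and 10 d for the 4 ligands, with 1 colour per horse as labelled and a black line at the mean. On this scale, which compresses low levels, the mean for AREG went from 1.52 at 48 h to 0.19 at 10 d. The ratio of its mean levels was 4.94 and 5.03 at these times, each leaning on a single library. The mean for HBEGF was 0.66 at 48 h, 1.38 at 96 h, 1.55 at 6 d and 0.85 at 10 d, and TGFA lay on both sides of 0 at each time.

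A direct test asked if the gap between ISF and SF changed between 96 h and 10 d. On the log2(GeTMM + 1) scale it shrank by 0.80 ± 0.33 for AREG (FDR = 0.23), and by 0.53 ± 0.36 for HBEGF (FDR = 0.55), 1.02 ± 0.62 for EREG (FDR = 0.48) and 0.92 ± 0.48 for TGFA (FDR = 0.38). None of the 5 members was called with limma on GeTMM or with voom on recovered reads, 1 had an unadjusted p under 0.05 (AREG), and 1.00% of all genes were called. A loss of the fluid difference with time is therefore not shown for any single ligand, although AREG was called at 96 h and not at 10 d.

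Transcripts of the receptors were at the limit of detection in most libraries. EGFR, the receptor of AREG, TGFA, EREG and HBEGF, had 479 reads over the 68 libraries, of which 221 came from the SF library of Lurie at 10 d and 60 from that of Moon. It had no read in 26 libraries. ERBB2 had 396 reads, 117 of them in the same library of Lurie, and none in 29 libraries. ERBB3 never exceeded 8 reads, with 114 in all. At these counts a receptor level can be read only as a range.

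EGFR reached its highest levels in SF at 10 d. There it ran from 0.0348 (Ollie) through 0.133 to 3.36 GeTMM (Lurie), with Moon second at 0.957, and in ISF at 10 d from 0 in 4 of 7 libraries to 0.203 (Moon). At 6 d it was at 0 to 0.219 in SF and 0 to 0.0599 in ISF, and at 48 h no library exceeded 0.0526. When the filter on low values was dropped, so that 24065 genes entered the fit, EGFR at 10 d was called lower in ISF (-0.49 ± 0.13, FDR = 0.0076), and also without the library of Lurie (-0.22 ± 0.06, FDR = 0.014). EGFR reached 0.5 GeTMM only in the SF libraries of Lurie and Moon at 10 d, and the fit without Lurie kept that of Moon. A difference beyond these 2 libraries is therefore not shown. ERBB2 differed by -0.15 ± 0.10 in the fit of all libraries without the filter (FDR = 0.38), and by 0.03 ± 0.06 without the library of Lurie (FDR = 0.94). ERBB2 ran from 0.0234 to 1.74 GeTMM in SF and from 0 to 0.363 in ISF at 10 d.

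**Figure D3:**
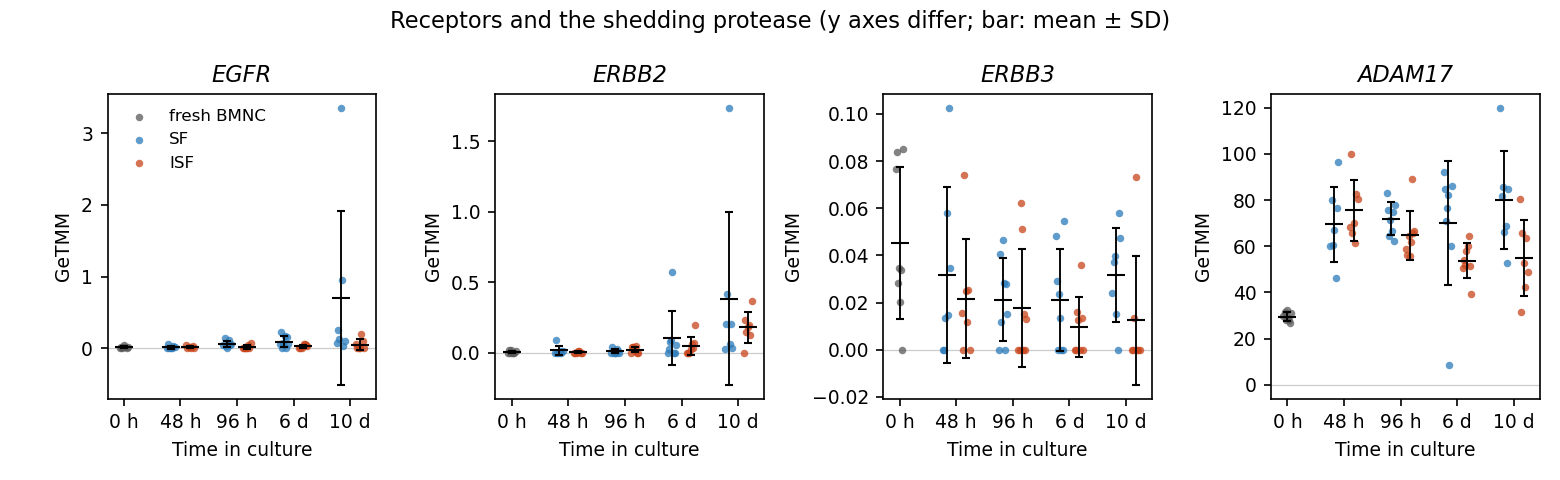
GeTMM of EGFR, ERBB2, ERBB3 and ADAM17 (y axes, linear, with ranges that differ between panels) against time in culture, with 1 point per library and black bars for the mean ± SD. EGFR and ERBB2 rise above 1 GeTMM only in the SF library of Lurie at 10 d, ERBB3 stays under 0.103 in all libraries, and ADAM17 is at 27.0 GeTMM or more everywhere except in the SF library of Moon at 6 d (8.73).

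Markers of fibroblasts or stromal cells were high in the same library of Lurie. The 5 markers (COL1A1, COL1A2, COL3A1, DCN and LUM) summed to 4038 GeTMM there, against 0.406 to 517 in the other SF libraries at 10 d and 0.123 to 49.2 in ISF at 10 d, and 5 of 5 were called lower in ISF. Over the 60 cultured libraries the mean level of the list had a Pearson r of 0.67 with EGFR and 0.77 with ERBB2. The SF library of Moon at 10 d, second in EGFR, had the lowest stromal sum of its group, 0.406 GeTMM. The SF library of Dreamer at 10 d, second in the stromal list at 517 GeTMM, had 0.133 GeTMM of EGFR. The part of stromal cells in the receptor levels was not tested.

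**Figure D4:**
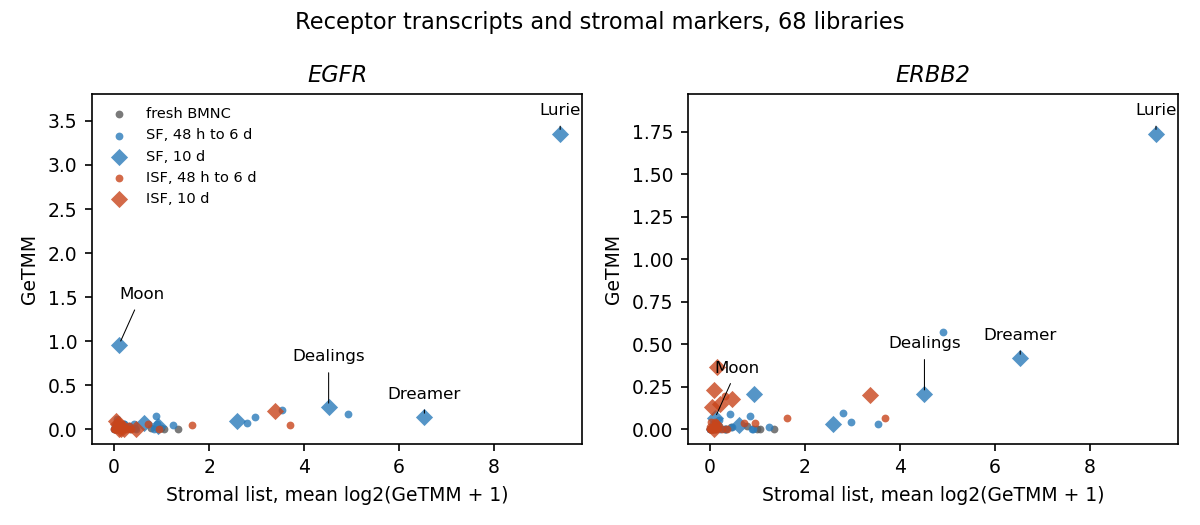
GeTMM of EGFR (left) and ERBB2 (right) in each of the 68 libraries against the mean log2(GeTMM + 1) of 5 stromal markers (x axis), with fresh BMNC in grey, SF in blue, ISF in red and 10 d libraries as diamonds. The SF library of Lurie at 10 d is highest on both axes (3.36 and 1.74 GeTMM at a mean of 9.39), and that of Moon has 0.957 GeTMM of EGFR at a mean of 0.10.

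ADAM17, the main sheddase of AREG, EREG, HBEGF and TGFA, rose early in both fluids. At 0 h it lay between 27.0 and 32.3 GeTMM, and at 48 h between 46.3 and 96.2 in SF and between 61.6 and 99.8 in ISF, with no overlap with fresh BMNC. The rise was 1.18 ± 0.23 in SF (FDR = 2.2e-05) and 1.31 ± 0.23 in ISF (FDR = 2.3e-06). It persisted at 96 h (1.25 ± 0.22 and 1.09 ± 0.22) and did not change by a called amount from 96 h to 10 d in either fluid (FDR = 0.80 in SF and 0.39 in ISF).

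Between the fluids ADAM17 was lower in ISF in most horses at the later times. At 6 d it ran from 39.4 to 64.3 GeTMM in ISF, and in SF from 60.02 to 92.3 in 7 libraries with Moon at 8.73. ISF was lower in 7 of 8 horses, the exception being Moon. The fitted difference was -0.17 ± 0.22 with all libraries (FDR = 0.61) and -0.55 without the SF library of Moon (FDR = 0.0011). At 10 d ISF ran from 31.4 to 80.5 and SF from 52.6 to 119.9 GeTMM, with ISF lower in 6 of 7 horses. The difference of -0.55 ± 0.24 had an FDR of 0.093, and of 0.0022 when the 6 d library of Moon was left out, which changes the shared estimate of the spread and not the 10 d values. At 96 h the difference was -0.16 ± 0.22 (FDR = 0.74).

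Of the other genes of the shedding machinery, 8 of 9 were measured and tested. At 96 h 1 was called higher in ISF, RHBDF2, the iRhom that carries ADAM17 through its maturation, at 45.6 ± 5.1 GeTMM in ISF and 30.8 ± 4.6 in SF (n = 8, difference 0.56, FDR = 0.0072). At 6 d RHBDF2 (0.68), ADAM9 (0.84) and ADAM10 (0.58) were higher in ISF, and at 10 d ADAM12 was lower (-0.78). These 1, 3 and 1 of 8 genes stand beside 10.5%, 30.2% and 20.8% of all genes called at the same times. RHBDF2 at 10 d was at 34.6 ± 8.7 in ISF and 36.4 ± 12.5 in SF. The metalloprotease inhibitor TIMP3 was not called at any of the 4 times.

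The rest of the family was scarce. NRG3 had no read in any library, EGF had none in 44 libraries and never exceeded 0.0749 GeTMM, and NRG1 and EPGN had none in 45 and 49. The receptor ERBB4 reached 0.603 GeTMM at most. BTC, NRG2 and NRG4 passed the filter, and of these only NRG2 was called between the fluids, lower in ISF at 6 d (-0.27). EREG and HBEGF bind ERBB4 besides EGFR, and both receptors were thus near the limit of detection.

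Of 15 genes tested that inhibit ERK or receptor signalling, 5 were called higher in ISF and 0 lower at 96 h, 8 higher and 1 lower (LRIG3) at 6 d, and 6 higher and 1 lower (LRIG1) at 10 d. The remaining 10, 6 and 8 were not called, and of all genes tested 10.5%, 30.2% and 20.8% were called at these times. The median difference of the list was 0.23, 0.75 and 0.54 at these times, against -0.0027, 0 and -0.022 over all genes tested. SPRY2, a Sprouty protein, was at 44.6 ± 19.7 GeTMM in ISF and 7.04 ± 3.23 in SF at 6 d (2.53, FDR = 4.1e-11). DUSP6, the phosphatase of ERK, was at 85.7 ± 21.0 and 21.4 ± 7.6 (2.02, FDR = 5.4e-09).

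The inhibitors had unlike levels over time. DUSP6 was at 81.1 ± 13.1 GeTMM in fresh BMNC and at 14.4 ± 4.9 in SF and 28.5 ± 13.8 in ISF at 48 h, and stood at 79.6 ± 8.7 in ISF and 48.6 ± 18.4 in SF at 10 d (difference 0.77, FDR = 0.032). DUSP4 was near 1.07 GeTMM at 0 h and reached 34.2 ± 13.4 in ISF against 7.63 ± 6.32 in SF at 10 d (2.29, FDR = 1.5e-04). DUSP5 differed by 1.33 at 96 h (FDR = 0.0015) and 1.69 at 6 d (FDR = 1.2e-05). At 48 h, where no test is given, the differences were 2.21 for DUSP4, 1.05 for SPRY2, 0.85 for DUSP6 and 0.68 for DUSP5.

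Of 14 transcripts tested that ERK activity is known to induce, 4 were higher in ISF at 96 h, 6 at 6 d and 5 at 10 d, with 0 lower at each time. The remaining 10, 8 and 9 were not called, beside 10.5%, 30.2% and 20.8% of all genes called. FOSL1, an AP-1 subunit, was at 10.2 ± 5.3 GeTMM in ISF and 2.46 ± 1.87 in SF at 6 d (1.71, FDR = 3.7e-06). ETV5 differed by 1.64 (FDR = 5.0e-06), the cyclin CCND1 by 1.30 (FDR = 2.6e-04) and ATF3, which stress also induces, by 1.06 (FDR = 0.0095) at 6 d. The other 8 genes of the list were not called at 6 d, with EGR1, FOS and MYC among them.

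**Figure D5:**
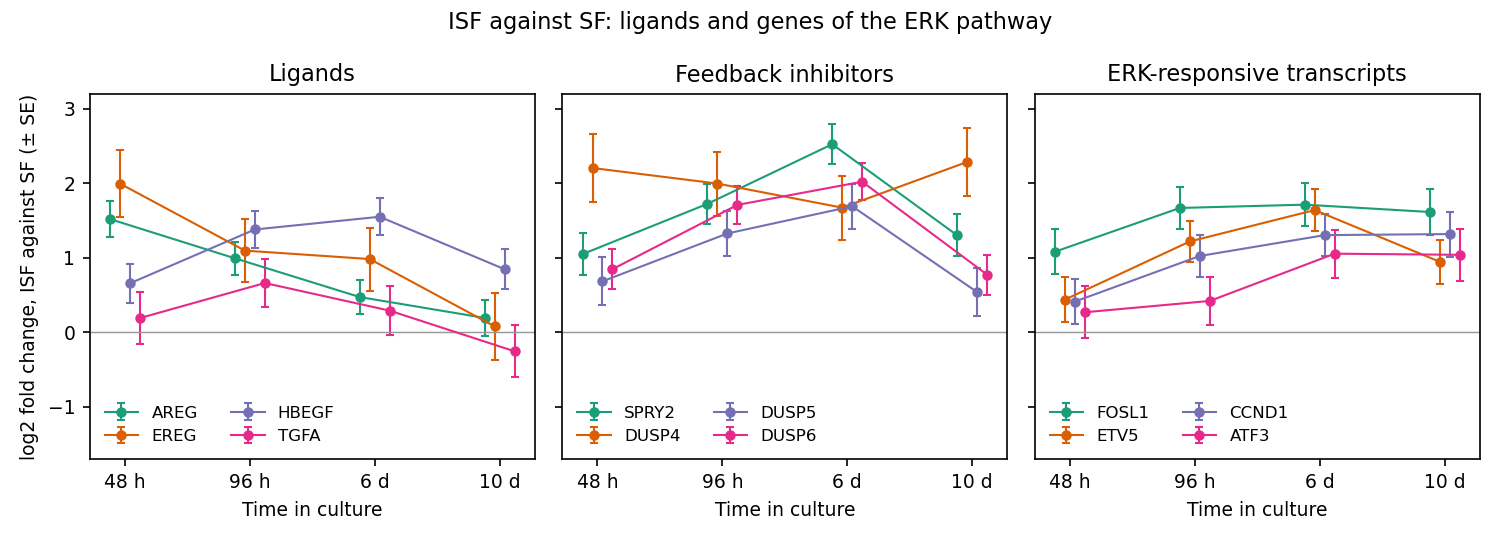
Fitted log2 difference between ISF and SF ± SE (y axis, on the log2(GeTMM + 1) scale) at 48 h, 96 h, 6 d and 10 d for the 4 ligands, 4 feedback inhibitors and 4 ERK-responsive transcripts. On this scale AREG and EREG go from 1.52 and 2.00 at 48 h towards 0 at 10 d. The ratio of mean AREG levels was 4.94 and 5.03 at these times, each leaning on a single library. HBEGF, SPRY2, DUSP5 and DUSP6 are highest at 6 d (1.55, 2.53, 1.69 and 2.02).

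Among the signalling genes next to the receptor, calls went both ways. SRC was higher in ISF at 96 h (0.74, FDR = 0.015) and 6 d (1.06, FDR = 8.2e-05), with 19.3 ± 4.4 GeTMM in ISF and 9.54 ± 5.59 in SF at 6 d. STAT5B was lower, at 9.96 ± 1.24 in ISF against 24.0 ± 8.0 in SF at 10 d (-1.15, FDR = 4.4e-06), as were STAT5A (-0.61, FDR = 1.9e-05) and the docking protein GAB1 (-0.69, FDR = 0.036). Of the 13 genes tested 5 were higher and 3 lower at 6 d, and 0 higher and 3 lower at 10 d, when 30.2% and 20.8% of all genes were called. Of the 8 genes of the RAS-ERK list, 1 was higher and 1 lower at 96 h, 3 were higher and 0 lower at 6 d, and 4 were higher and 0 lower at 10 d, and these shares too stand beside 10.5%, 30.2% and 20.8% of all genes. MAP2K1, the kinase of ERK, differed by 0.84 at 6 d (FDR = 2.5e-05) and MAPK3, which is ERK1, by 0.63 (FDR = 4.1e-04).

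Across libraries AREG and EREG varied together, with a Pearson r of 0.86 over all 68 and 0.85 over the 60 cultured libraries. HBEGF did not follow them (r = -0.11 with AREG and -0.13 with EREG over 68 libraries). The libraries share horses, fluids and times, and these values are descriptions. Of 8598 genes with a mean of at least 5 GeTMM, those whose pattern was most like that of AREG over 68 libraries were MDM1 (r = 0.83), PLK3 (0.78), AOAH (0.78), CA12 (0.75) and IL22RA2 (0.74). IL22RA2 encodes the soluble IL-22 receptor and AOAH the enzyme that deacylates lipopolysaccharide. MDM1 had a mean of 71.7 GeTMM in ISF and 32.7 in SF at 48 h, and 14.4 at 0 h.

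The genes most like EREG were PAIP1 (0.78), IL22RA2 (0.73) and PLK3 (0.71), of which IL22RA2 and PLK3 were also among the 5 named for AREG. Those most like HBEGF were DUSP6 (0.80), RGS1 (0.77) and TAGLN2 (0.77). After the mean of each group was subtracted, the likeness was lower, and the leading genes were PRR15 (0.55), P2RY14 (0.53), CA12 (0.53), PGS1 (0.53) and ECHDC2 (0.52) for AREG. For EREG they were CCDC122 (0.61), IFNGR2 (0.54) and FAM200A (0.53), and for HBEGF CHST2 (0.58), CEMIP (0.54) and TMEM26 (0.54). DUSP6, first for HBEGF over all libraries, was thus not among the first 3 within groups.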

How the data were processed

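RNA-seq of 68 BMNC libraries from 8 horses was analysed. According to the study's methods and the submitters' processing notes, reads were trimmed with TrimGalore 0.4.3, aligned and counted with STAR 2.7.2a against EquCab3.0 with Ensembl annotation 104, and normalised. The deposited values are GeTMM, which the authors made from counts per gene as an RPKM-type unit with TMM scaling. Groups came from sample titles.

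Here limma 3.58.1 (R 4.3.3) fitted log2(GeTMM + 1) in 9 groups for the 14570 genes that reached 0.5 GeTMM in 7 or more libraries, with no term for horse. Same-numbered libraries share a horse, and deviations from the group means correlated above 0.1 in 27 of 30 ISF and SF pairs (median 0.40), so a fit with horse as a replicate block was the alternative. Whole reads were recovered from the steps of the values for 24064 of 24065 genes. The fit was tried on simulated data with changes of 2 log2 units and normal noise without a horse effect. It recovered 197 of 200 genes changed in ISF against SF at 96 h, among 14570, with 9 false calls. For 96 h to 10 d in ISF it recovered 191 of 200, with 15 false calls (7.28% of the calls). Smaller changes were not simulated. Members and gene lists were chosen with earlier results of these data known. Named pathway genes were called between the fluids at 2 or more times, 4 per list by size; other list genes were named to account for small counts, after their values were seen. Genes like a member were ranked by Pearson r. Each well was sequenced once, with a single well per horse and condition, so spread between horses and between wells cannot be separated. Without the term for horse, p-values rest on the spread of libraries around their group means, pooled over the 9 groups. They do not rest on the spread of differences within horses. No reference sequence was used.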

Additional observations from a re-analysis of the deposited data

Results flagged for a closer look

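Single libraries that stood apart from their group by Dixon's test at the 95% level were found in 24 of 72 combinations of a member and a group. In normally distributed data chance alone flags about 1 in 20 such groups. These GeTMM values include many at 0, and a group with reads in only 1 library is always flagged. The count of 24 therefore cannot be set against that rate. Each value below is in GeTMM with the nearest other library of its group.

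For AREG these were Moon in fresh BMNC (0.0781, the others 0), Ollie in SF at 48 h (3.29, next 1.34), Flash at 6 d in SF (0.381, next 0.111) and in ISF (1.29, next 0.694), and Dreamer in ISF at 10 d (0.697, next 0.298). For EREG they were Ollie in fresh BMNC (0.433, the others 0), Ollie in SF at 48 h (12.4, next 4.01) and 96 h (2.57, next 0.828), and Flash in SF at 6 d (0.806, next 0.312). Ollie and Flash thus stood out in AREG and in EREG in the same SF cultures, Ollie at 48 h and Flash at 6 d.

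For HBEGF they were Ollie in fresh BMNC (13.5, next 6.97), Flash in SF at 48 h (1.47, next 0.983) and the ISF library labelled Dealings at 96 h (11.3, next 5.40), whose horse is in doubt. For TGFA it was Lurie in ISF at 6 d (9.81, next 4.47).

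Lurie was the horse apart for EGFR in fresh BMNC (0.0403, next 0.0173) and in SF at 10 d (3.36, next 0.957), and for ERBB2 in SF at 6 d (0.569, next 0.0916) and 10 d (1.74, next 0.415). ERBB2 was also high in Dealings in SF at 48 h (0.0900, next 0.0144) and in RimRun in ISF at 6 d (0.196, next 0.0661). For ERBB3 the libraries were those of Dreamer in ISF at 48 h (0.0740, next 0.0254), Moon in ISF at 6 d (0.0360, next 0.0159) and Lurie in ISF at 10 d (0.0734, next 0.0137), each resting on 5 reads or fewer. For ADAM17 both were from Moon, in ISF at 96 h (89.2, next 66.6) and in SF at 6 d (8.73, next 60.02).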

How the results depend on the processing

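The alternatives were a pseudocount of 0.1, no filter, fits limited to the groups of 1 comparison, the replicate block (horse), leaving out each horse, the doubtful ISF pair at 96 h (Dealings and Dreamer) or the SF library of Moon at 6 d, library weights, and voom on recovered reads. Of 713 values of single members under them, 654 kept direction and call, 33 gained a call, 21 lost it and 5 reversed. AREG and HBEGF at 96 h, HBEGF at 6 d, and the calls from 0 to 96 h were kept in every alternative run. The replicate block lost no call, and the calls it gained stand beside the results. The reversals were all of differences near 0. TGFA between the fluids at 6 d ranged from -0.0185 (without Moon) to 0.5302 with each horse left out, EREG between the fluids at 10 d from -0.0273 (without Lurie) to 0.1738, and EREG from 96 h to 10 d in SF from -0.0617 (without Dreamer, and also without Moon) to 0.1902. With library weights EREG at 10 d was -0.0089.

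The number of members called between the fluids at 96 h was 2, and 4 with library weights. It was 3, with EREG added, without Catnip or with the replicate block, as labelled or with the doubtful ISF pair exchanged. At 6 d it was 1, but 3 with a pseudocount of 0.1, with only the compared groups or with the replicate block, 2 without the library of Moon, with library weights or with voom, and 1 to 2 with each horse left out. At 10 d it was 1, but 2 without the filter, without the library of Moon or with library weights, and 0 (without Dreamer or RimRun) to 2 with each horse left out. From 96 h to 10 d in SF it was 1, but 3 without the filter, 2 with the replicate block or library weights, and 1 to 2 with each horse left out. The replicate block with the doubtful ISF pair exchanged, which was chosen after seeing the data, also gave 2 there. The cause was not tested, except that dropping the filter brings 3 more members into the fit and leaving out a horse removes samples. The fit of the receptors without the library of Lurie was chosen after seeing the data as well. AREG and EREG rest on few reads, which limits what can be called at 6 d and 10 d.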
